A study of Macaca mulatta with 9 samples.

Results

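DNA repair genes encode the proteins that find and mend damaged or mispaired DNA. The 39 genes described here were chosen by symbol from the deposited annotation, with older symbols for MRE11 (MRE11A), NBN (NBS1) and PARP1 (ADPRT). They are 39 of the 19759 genes named on the Affymetrix Rhesus array, and all 39 had at least 1 probe set. They comprise 11 genes of homologous recombination, 5 of the Fanconi anaemia pathway, 4 of mismatch repair, 3 of end joining, 7 of base excision and single-strand break repair, 5 of nucleotide excision repair and 4 damage signalling kinases.

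Total RNA from rhesus monkey cells was measured on 9 arrays. One array held pooled embryoid bodies (EBs), aggregates of ES cells left to differentiate spontaneously for 30 days without FGF2. Which ES lines went into the pool is not given, and the protocols differ on whether the culture stayed in suspension or moved to gelatin-coated dishes. One array held adult skin fibroblasts, harvested when confluent. The other 7 arrays held embryonic stem (ES) cells of the lines ORMES6 (biological replicates A, B and C), ORMES7, ORMES9, ORMES10 and ORMES13. These pluripotent cells from early embryos were grown with FGF2 on inactivated mouse embryonic fibroblast feeders, and well-shaped colonies were picked manually.

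Each repair route handles another kind of lesion. Homologous recombination copies a sister chromatid to mend double-strand breaks after replication, and end joining ligates the broken ends directly. The Fanconi anaemia pathway unhooks crosslinks, mismatch repair corrects replication errors, base excision repair removes damaged bases one at a time, and nucleotide excision repair cuts out bulky lesions such as those made by ultraviolet light. The kinases ATM and ATR sense breaks and stalled forks and act through CHEK2 and CHEK1. Several of these genes are transcribed mainly in dividing cells.

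Levels are log2(signal + 16), and differences are EBs minus ES lines or fibroblasts minus ES lines, so a negative value means a lower level in the differentiated cells. Folds are on the same offset scale, which understates changes of low signals. The 5 lines were the replicates, with the ORMES6 arrays averaged. Since the EBs and the fibroblasts were 1 array each, a p-value asks whether that array lay outside the spread of the ES lines. It says nothing of the spread among EBs or fibroblasts. A gene was called at a limma p below 0.05 after Benjamini-Hochberg adjustment over all 19759 genes. In such bulk samples fewer cells of a type and less RNA per cell cannot be told apart.

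The cells carried the markers of their labels in part. All 5 measured markers of undifferentiated ES cells were called lower in EBs and in fibroblasts. Of 7 neural markers 4 were called higher in EBs. Among 7 cardiac and endoderm markers 0 were called in EBs, with 4 positive and 3 negative differences, the lowest -2.97 for AFP. Of 10 fibroblast and mesenchyme markers 9 had positive differences in fibroblasts, but FAP alone was called higher and THY1 was called lower. In EBs 9 of the same 10 also had positive differences, 7 of them above all ES arrays, and FAP alone was called higher. The summed signal of this list was 41008 in EBs and 52042 in fibroblasts, against 8572 to 26303 on the ES arrays. The 21 markers of dividing cells, such as MKI67 and the MCM helicase genes, had a summed signal of 27604 in EBs and 12390 in fibroblasts, against 70312 to 85404 on the ES arrays. Of these markers 15 were called lower in EBs and 19 in fibroblasts, and none was called higher; AURKB lay near the bottom of the scale on every array. RNA measures differed too: the actin 3′ to 5′ signal ratio was 7.15 in EBs and 13.1 in fibroblasts, against 22.7 to 66.2 on the ES arrays. The same ratio for GAPDH was 1.61 in EBs, below the ES arrays, but 2.74 in fibroblasts, within the ES range of 2.55 to 5.20. The geometric mean of the spiked controls was 506 in EBs and 874 in fibroblasts, against 571 to 1157. Whether dividing-cell or mesenchymal content, RNA quality or spike level had a part in the repair gene differences was not tested beyond the alternatives given below.

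Most repair genes had lower levels in both differentiated samples. By median difference the exceptions were nucleotide excision repair in both samples and end joining in fibroblasts. The median difference over the 39 genes was -0.76 in EBs and -1.09 in fibroblasts, against -0.04 and -0.25 over all genes. In EBs 5 of 39 genes (12.8%) fell and none rose, where 2.76% of all genes were called lower and 2.90% higher. In fibroblasts 21 of 39 (53.8%) fell and DDB2 alone rose, where 13.0% of all genes were called lower and 7.89% higher. At an unadjusted limma p below 0.05 there were 14 genes lower and 3 higher in EBs, against 10.8% and 10.9% of all genes, and 25 lower and 4 higher in fibroblasts, against 21.3% and 12.0%. Both comparisons share the ES arrays. A separate fit took only genes with a mean signal of at least 50, which 38 of the 39 reached. Of all genes in that fit 5.92% were called lower in EBs and 23.0% in fibroblasts. There the 5 repair genes called lower in EBs were joined by ATR, BLM, BRCA2 and FANCG. In fibroblasts ERCC2 joined those called lower, and FANCC joined DDB2 as called higher.

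The arrays did not overlap for many of them. The EB level lay below all 7 ES arrays for 28 genes and above all 7 for 5, against 21.1% and 21.5% of all genes. The fibroblast level lay below all 7 ES arrays for 27 genes and above for 6, against 36.3% and 18.2% of all genes.

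**Figure D1:**
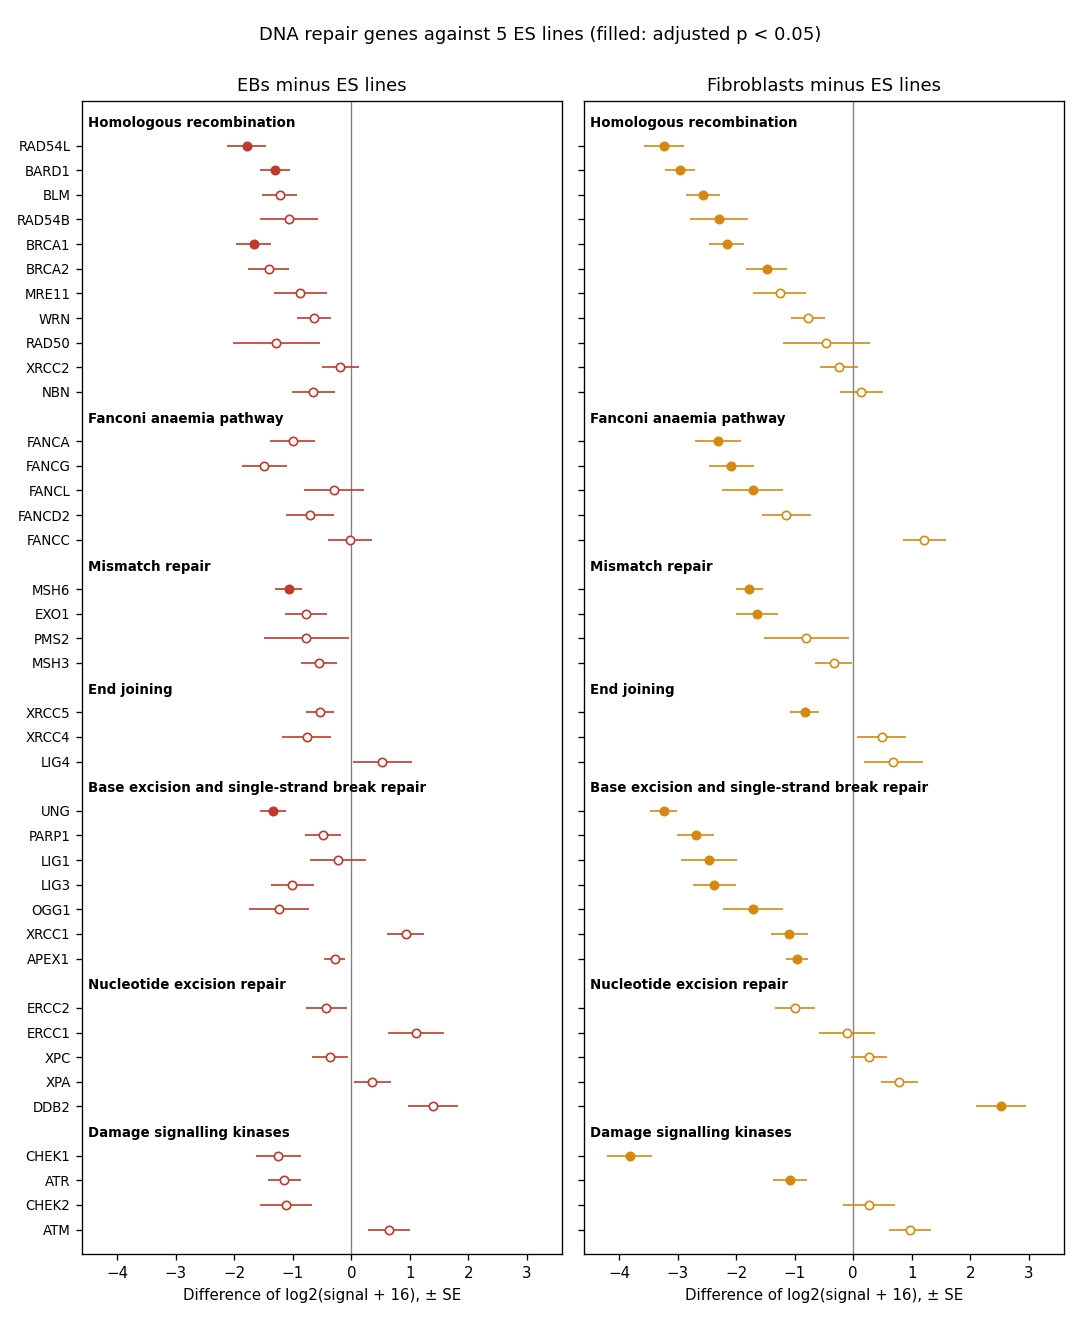
Differences of log2(signal + 16) for 39 repair genes in blocks by route, EBs minus ES lines on the left and fibroblasts minus ES lines on the right; points are estimates, bars are ± 1 SE, and filled points passed an adjusted p of 0.05. The EB panel has 5 filled points, all negative; the fibroblast panel has 21 filled points below 0 and 1 above, DDB2.

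The count in EBs rested on few arrays. It was 1 gene, UNG, without ORMES10, 3 genes without ORMES7 or without ORMES9, and 9 genes without ORMES6 replicate B. With the median over each gene's probe sets 3 genes were called in EBs (BLM, RAD54L and UNG). With the spike level as a covariate no repair gene and 6 of all genes were called, while the median of the 39 was -0.57. In fibroblasts the count of calls lay between 17 and 23 without any 1 ES array. Tested for a change beyond 2-fold, no gene was called in EBs and 8 were called lower in fibroblasts (BARD1, BLM, BRCA1, CHEK1, LIG3, PARP1, RAD54L and UNG). Centring each array on its median raised the fibroblast differences of all genes by 0.29, so that 16 repair genes were called lower and 4 higher (ATM, DDB2, FANCC and XPA).

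Homologous recombination held most of the calls in EBs. There 3 of 11 genes fell (BRCA1, RAD54L and BARD1), with a median difference of -1.23 and all 11 differences negative. In fibroblasts 6 of 11 fell (RAD54L, BARD1, BLM, RAD54B, BRCA1 and BRCA2), with a median of -1.48. A wider list, described below, held 16 other measured genes of this route, with medians of -0.45 in EBs and -0.50 in fibroblasts. Of these 0 were called in EBs and 3 fell in fibroblasts, where 13.0% of all genes were called lower. BRCA1 (probe set MmuSTS.4533.1.S1_at), a ubiquitin ligase that directs break ends into recombination, had a level of 7.55 in EBs and 7.06 in fibroblasts, against 9.03, 9.17 and 9.42 (lowest, median and highest) on the 7 ES arrays. Neither differentiated sample overlapped the ES arrays, which themselves lay within 0.40 of each other. The difference was -1.66 ± 0.30 (SE; 3.17-fold lower, adjusted p = 0.021) in EBs and -2.16 ± 0.30 (4.46-fold lower, adjusted p = 0.0018) in fibroblasts. The EB call was lost in 4 of 18 alternatives, and a weaker BRCA1 probe set gave 0.03 in EBs and -0.92 in fibroblasts, neither called.

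BARD1 (MmuSTS.549.1.S1_at), the partner that BRCA1 needs for its ligase activity, had 9.37 in EBs and 7.71 in fibroblasts, against 10.48, 10.67 and 10.85 on the ES arrays. It fell by 1.30 ± 0.26 in EBs (2.46-fold, adjusted p = 0.029) and fell by 2.96 ± 0.26 in fibroblasts (7.78-fold, adjusted p = 0.00019). Its second probe set was also called lower in fibroblasts (-2.14) but not in EBs (-0.76, adjusted p = 0.41 in the limma test of single probe sets). RAD54L (MmuSTS.2071.1.S1_at), a motor protein of strand invasion, had 6.95 in EBs and 5.51 in fibroblasts, against 8.46, 8.69 and 8.99. It had the largest EB difference of the 39 genes, -1.79 ± 0.34 (3.46-fold, adjusted p = 0.025), and a fibroblast difference of -3.23 ± 0.34 (9.41-fold, adjusted p = 0.00044). The EB calls were lost in 6 of 18 alternatives for BARD1 and in 4 for RAD54L. For both genes the fibroblast level was below the EB level, and the EB level below every ES array.

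BRCA2, a mediator protein of recombination, had 5.01 in EBs and 4.94 in fibroblasts, against 6.14, 6.44 and 6.61 on the ES arrays. The EB value missed the threshold (-1.41 ± 0.35, adjusted p = 0.056) and the fibroblast value passed it (-1.48 ± 0.35, adjusted p = 0.020). The detection call in fibroblasts was Absent, with a signal of 14.8, above the lowest Present signal on that array (6.0). The 2.79-fold lower level is thus the estimate at its own signal and not a lower bound. A second BRCA2 probe set, also Absent there, gave 2.27-fold and was not called. BLM, a helicase that dissolves joined strands, lay at the threshold in EBs (-1.23 ± 0.30, adjusted p = 0.0502) and fell in fibroblasts by 2.56 ± 0.30. RAD54B, a motor protein related to RAD54L, fell in fibroblasts by 2.29 ± 0.50 and had -1.07 in EBs, not called.

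The MRN complex, which binds and trims broken ends, was not called in either comparison. MRE11, its nuclease, had -0.87 in EBs and -1.25 in fibroblasts, and NBN had -0.65 and 0.14. Other NBN probe sets gave fibroblast differences between -1.67 and 0.35, none of them called. The one at -1.67 had nearly the same mean ES level, 8.55 against 8.60. The NBN difference in fibroblasts thus depended on the probe set. RAD50 had -1.28 and -0.46 with the widest SE of the 39 genes (0.75). The helicase WRN had -0.64 and -0.77, with both samples below every ES array. XRCC2, another recombination factor, was Present in ORMES10 alone among the lines, so its differences of -0.19 and -0.24 carry little information.

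**Figure D2:**
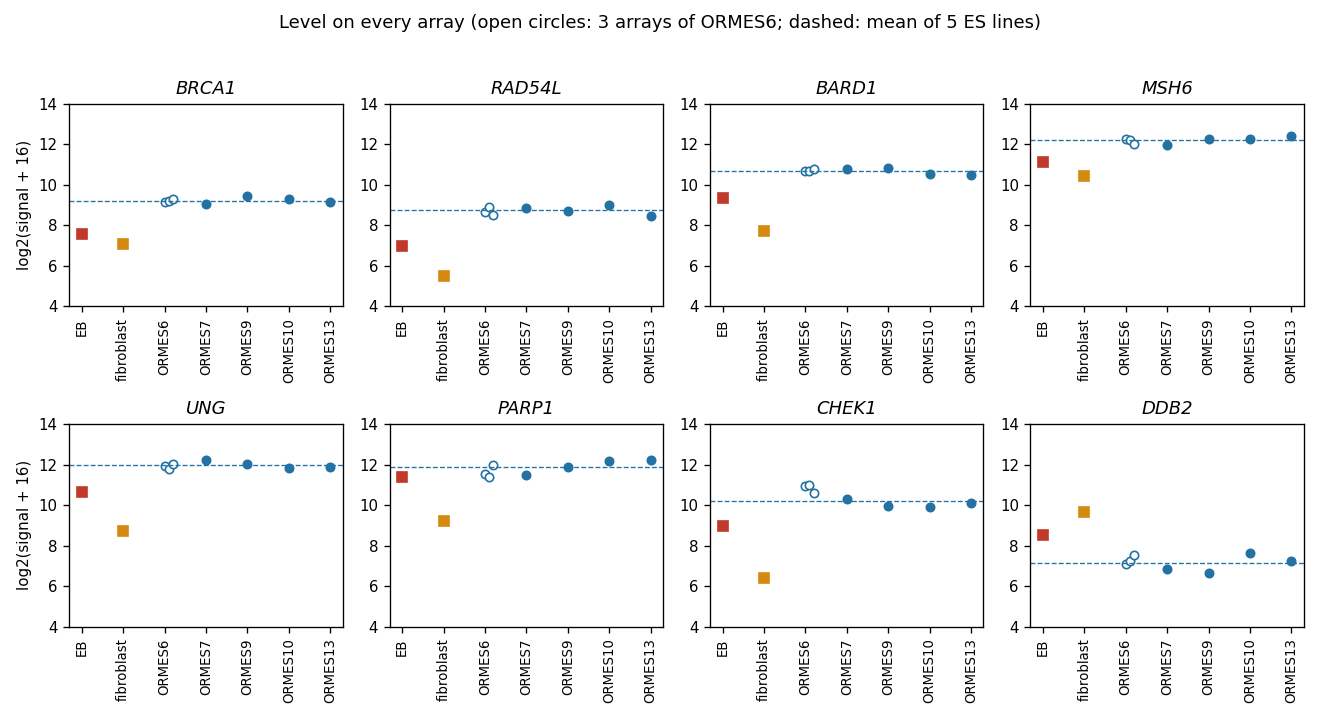
Level, log2(signal + 16), of 8 repair genes on every array: squares for EBs and fibroblasts, open circles for the 3 arrays of ORMES6, filled circles for the other 4 lines, and a dashed line for the mean of the 5 lines. For BRCA1, RAD54L, BARD1, MSH6, UNG and CHEK1 both squares lie below every circle; the PARP1 square of the EBs lies within the ES range, and both DDB2 squares lie above it.

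In the Fanconi anaemia pathway no gene was called in EBs and 3 of 5 fell in fibroblasts. FANCA and FANCG belong to the core complex, and FANCL is its ubiquitin ligase. FANCG had 8.14 in EBs and 7.54 in fibroblasts, against 8.79, 9.57 and 10.12 on the ES arrays. Both samples lay below all ES arrays, but the EB difference was not called (-1.49 ± 0.38, adjusted p = 0.062), while the fibroblast one was (-2.09 ± 0.38, 4.24-fold, adjusted p = 0.0064). FANCA had 7.29 in EBs and 5.98 in fibroblasts, against 7.80, 8.15 and 8.68. It fell in fibroblasts by 2.31 ± 0.39 (4.97-fold, adjusted p = 0.0042), but the median over its 4 probe sets gave -0.41, not called. FANCL fell in fibroblasts by 1.72 ± 0.52 (adjusted p = 0.048), a call lost in 10 of 19 alternatives.

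FANCD2, the protein that the core complex ubiquitinates, had -0.71 in EBs and -1.14 in fibroblasts, not called. A second FANCD2 probe set, Absent in fibroblasts, was called lower there in the test of single probe sets (-1.89, adjusted p = 0.011). The core complex gene FANCC differed between its probe sets. The one standing for the gene gave 1.22 ± 0.37 in fibroblasts (adjusted p = 0.051), above every ES array, and the other 3 gave -0.48, -1.12 and -1.21, none of them called. The direction of FANCC in fibroblasts thus depended on the probe set. Over the ES lines alone another FANCC probe set averaged higher, 7.88 against 7.51, so the high fibroblast value entered the choice of the one standing for the gene.

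In mismatch repair MSH6 was the gene called in both comparisons. MSH6 (MmugDNA.16490.1.S1_at), which recognises mismatched bases, had 11.13 in EBs and 10.43 in fibroblasts, against 11.94, 12.25 and 12.39 on the ES arrays. It fell by 1.07 ± 0.23 in EBs (2.1-fold, adjusted p = 0.035) and fell by 1.77 ± 0.23 in fibroblasts (3.42-fold, adjusted p = 0.0012). The EB call was lost in 9 of 18 alternatives, among them quantile normalization and the test of single probe sets. A second MSH6 probe set, Present in all 5 lines, gave -0.19 in EBs and -0.87 in fibroblasts, neither called. EXO1, an exonuclease that also trims broken ends, had 6.09 in EBs and 5.21 in fibroblasts, against 6.58, 6.81 and 7.06. It was Absent in fibroblasts and fell there by 1.65 ± 0.36 (adjusted p = 0.013), 3.13-fold, with -0.78 in EBs, not called.

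MSH3, which recognises small loops, had -0.55 in EBs and -0.33 in fibroblasts, not called, although another of its probe sets was called lower in fibroblasts (-1.43, adjusted p = 0.047). PMS2, an endonuclease that acts after mismatch recognition, had -0.77 and -0.80, not called. All 4 genes of the route lay below every ES array in both differentiated samples.

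End joining had 1 call in all. XRCC5, the Ku80 subunit that binds broken ends, had 11.86 in EBs and 11.56 in fibroblasts, against 12.14, 12.37 and 12.82 on the ES arrays. It fell in fibroblasts by 0.83 ± 0.24 (1.78-fold, adjusted p = 0.043), a call lost in 9 of 19 alternatives. The largest EB difference of the route was that of XRCC4, the partner of ligase LIG4: XRCC4 had 7.74 in EBs, against 7.99, 8.43 and 9.08 on the ES arrays, a difference of -0.76 ± 0.41 (adjusted p = 0.34). In fibroblasts XRCC4 had 0.49, and LIG4 had 0.53 in EBs and 0.68 in fibroblasts, none of them called. The second XRCC4 probe set, also Present in all 5 lines, gave 0.42 in EBs and 1.41 in fibroblasts, neither called. The direction of XRCC4 in EBs thus depended on the probe set.

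Among the genes chosen here, base excision and single-strand break repair was the route with the widest median difference between EBs and fibroblasts. All 7 chosen genes fell in fibroblasts, with a median difference of -2.37, whereas UNG alone fell in EBs, with a median of -0.48. The wider list described below held 17 other measured genes of this route, with medians of -0.47 in EBs and -0.57 in fibroblasts. Of these 0 were called in EBs and 5 fell in fibroblasts, where 13.0% of all genes were called lower. Their fibroblast differences were negative for 11 genes and positive for 6. Each of the 7 chosen genes was higher in EBs than in fibroblasts, by a median of 1.90, against 0.20 over all genes. With 1 array each this has no test. Of the 7 fibroblast calls, 5 were kept when arrays were centred on their medians and 6 under quantile normalization.

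UNG (MmuSTS.4691.1.S1_at), the glycosylase that removes uracil from DNA, had 10.64 in EBs and 8.74 in fibroblasts, against 11.77, 11.93 and 12.21 on the ES arrays. It fell by 1.34 ± 0.23 in EBs (2.53-fold, adjusted p = 0.017) and fell by 3.24 ± 0.23 in fibroblasts (9.43-fold, adjusted p = 7.3e-05), the smallest p of the 39 genes in each comparison. PARP1 (MmuSTS.2970.1.S1_at), the sensor of nicked DNA, had 11.40 in EBs and 9.19 in fibroblasts, against 11.36, 11.88 and 12.25. The EB level thus lay within the ES range (-0.48 ± 0.31, adjusted p = 0.43), and the fibroblast level fell by 2.69 ± 0.31 (6.46-fold, adjusted p = 0.00074).

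The ligases of the route were also lower in fibroblasts than in EBs. LIG1, which joins nicks during replication, had 8.09 in EBs and 5.86 in fibroblasts, against 7.55, 8.32 and 8.80, and fell in fibroblasts by 2.47 ± 0.47. LIG3, the partner of XRCC1, had 7.75 in EBs and 6.39 in fibroblasts, against 8.43, 8.62 and 9.23; it was Absent in fibroblasts and fell there 5.18-fold (adjusted p = 0.0029). Other LIG3 probe sets gave -1.38 and 0.02 in fibroblasts, neither called. The LIG3 call was lost with the median over its probe sets. XRCC1, the scaffold of single-strand break repair, lay on different sides of the ES arrays in the 2 samples. It had 10.40 in EBs, above all ES arrays (9.18, 9.41 and 9.86), and 8.38 in fibroblasts, below them. The EB difference was not called (0.93 ± 0.32, adjusted p = 0.13), and the fibroblast one was (-1.09 ± 0.32, adjusted p = 0.043), although that call was lost in 9 of 19 alternatives.

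The glycosylase OGG1, which removes oxidised guanine, was Absent in fibroblasts and 3.27-fold lower there (adjusted p = 0.048). This call was lost in 14 of 19 alternatives, among them 6 of the 7 that left out 1 ES array. Its EB difference of -1.24 was not called. APEX1, the endonuclease that cuts at sites without a base, had 12.58 in EBs and 11.91 in fibroblasts, against 12.77, 12.89 and 13.06 on the ES arrays. It fell in fibroblasts by 0.96 ± 0.18 (1.95-fold, adjusted p = 0.0077).

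Nucleotide excision repair held the gene that rose. DDB2 (MmugDNA.19553.1.S1_at), which recognises ultraviolet lesions and is a target of p53 in human cells, had 8.54 in EBs and 9.66 in fibroblasts, against 6.65, 7.25 and 7.64 on the ES arrays. Both samples lay above all ES arrays. DDB2 rose in fibroblasts by 2.52 ± 0.43 (5.75-fold, adjusted p = 0.0046), and its EB difference was the largest positive one of the 39 genes but was not called (1.40 ± 0.43, adjusted p = 0.10). The fibroblast call held in 18 of 19 alternatives, all but the test for a change beyond 2-fold (adjusted p = 0.057). Detection in fibroblasts was not given for this probe set, which is the only one of DDB2.

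The other 4 genes of the route were not called in either comparison, and its median difference was 0.36 in EBs and 0.26 in fibroblasts. XPA, which verifies damage, had 8.91 in EBs and 9.34 in fibroblasts, against 8.32, 8.52 and 8.86, and thus lay just above the ES arrays in both. XPC, the damage sensor of the route, had -0.37 in EBs and 0.26 in fibroblasts. ERCC1, a subunit of the nuclease that cuts on the 5′ side of the lesion, had 8.69 in EBs, above the ES range of 6.62 to 8.27, and 7.48 in fibroblasts, within it. The ERCC1 arrays of ORMES6 spanned 1.30 and the EB difference was not called (1.11 ± 0.48, adjusted p = 0.22). The helicase ERCC2 had -0.43 and -0.99.

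Of the damage signalling kinases CHEK1 and ATR fell in fibroblasts, and none was called in EBs. CHEK1, the effector of ATR at stalled forks (MmugDNA.15754.1.S1_at), had 8.97 in EBs and 6.40 in fibroblasts, against 9.91, 10.30 and 10.98 on the ES arrays. Its fibroblast difference of -3.82 ± 0.38 (14.1-fold, adjusted p = 0.00036) was the largest of the 39 genes, and its EB difference was not called (-1.24 ± 0.38, adjusted p = 0.10). ATR had 8.34 in EBs and 8.40 in fibroblasts, against 9.28, 9.38 and 9.71. It fell in fibroblasts by 1.08 ± 0.29 (2.12-fold, adjusted p = 0.031), a call lost in 6 of 19 alternatives, and missed the threshold in EBs (-1.14 ± 0.29, adjusted p = 0.058).

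ATM, which senses double-strand breaks, had 8.20 in EBs and 8.53 in fibroblasts, against 7.18, 7.37 and 7.79, above the ES arrays in both samples but not called (0.65 ± 0.36 and 0.98 ± 0.36, adjusted p = 0.35 and 0.093). The other 7 ATM probe sets gave fibroblast differences between -0.44 and 0.72. CHEK2, the effector of ATM, had 7.65 in EBs, below all ES arrays (8.17 to 9.22), and 9.04 in fibroblasts, within them (-1.11 ± 0.45 and 0.27 ± 0.45, not called).

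**Figure D3:**
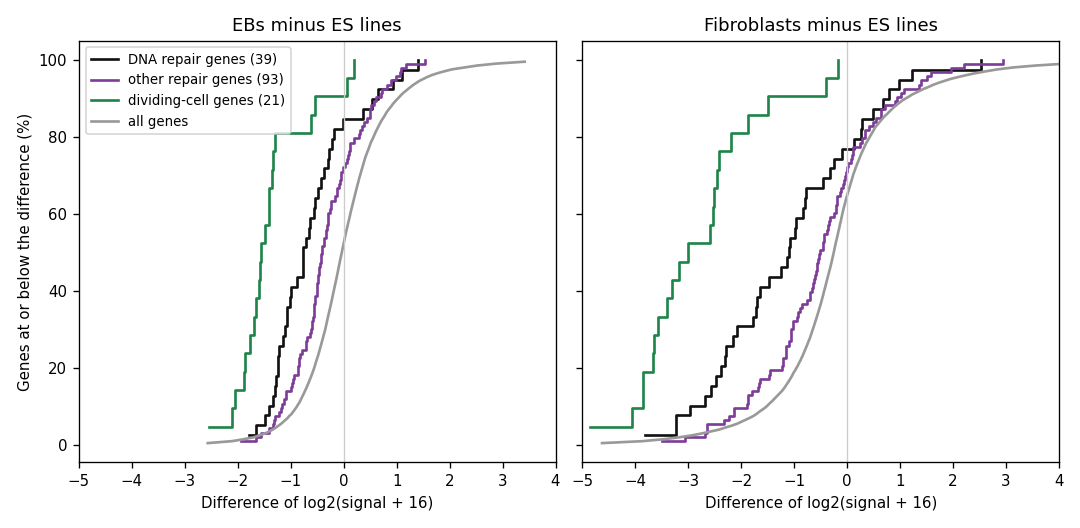
Share of genes (%) at or below each difference of log2(signal + 16), EBs minus ES lines on the left and fibroblasts minus ES lines on the right, for 39 repair genes, 93 other repair genes, 21 dividing-cell genes and all 19759 genes. The repair genes (medians -0.76 and -1.09) lie between the dividing-cell genes (-1.55 and -3.0) and all genes (-0.04 and -0.25), with the other repair genes (-0.42 and -0.50) nearer to all genes.

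A wider list of 104 other repair genes, of which 93 were measured, was described for comparison. In EBs 3 of 93 fell and none rose, against 2.76% and 2.90% of all genes, with a median difference of -0.42. The 3 were the mitotic entry kinase WEE1 (-1.93 ± 0.36, adjusted p = 0.023), the fork protection factor TIPIN (-1.66 ± 0.36, adjusted p = 0.038) and XRCC6, the Ku70 partner of XRCC5 (-0.80 ± 0.18, adjusted p = 0.040). In fibroblasts 22 of 93 fell and 5 rose, against 13.0% and 7.89% of all genes, with a median of -0.50. Large differences among these were those of the end-joining polymerase POLQ (-3.07 ± 0.46, adjusted p = 0.0026) and REV3L, the catalytic subunit of a translesion polymerase (2.94 ± 0.39, adjusted p = 0.0015).

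Of the 39 genes 21 had several probe sets, 81 in all with the 18 genes that had 1. No gene had probe sets called in opposite directions. The second RAD54B probe set carries another protein's name in the deposited description. When each probe set was tested, 4 genes were called lower in EBs, and 20 lower and 1 higher in fibroblasts. The probe sets standing for the genes were Present in all 5 lines for 37 of 39, whereas only 16 of the other 42 were. In fibroblasts 27 of 31 standing probe sets with a detection call were Present and 4 were Absent.

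**Figure D4:**
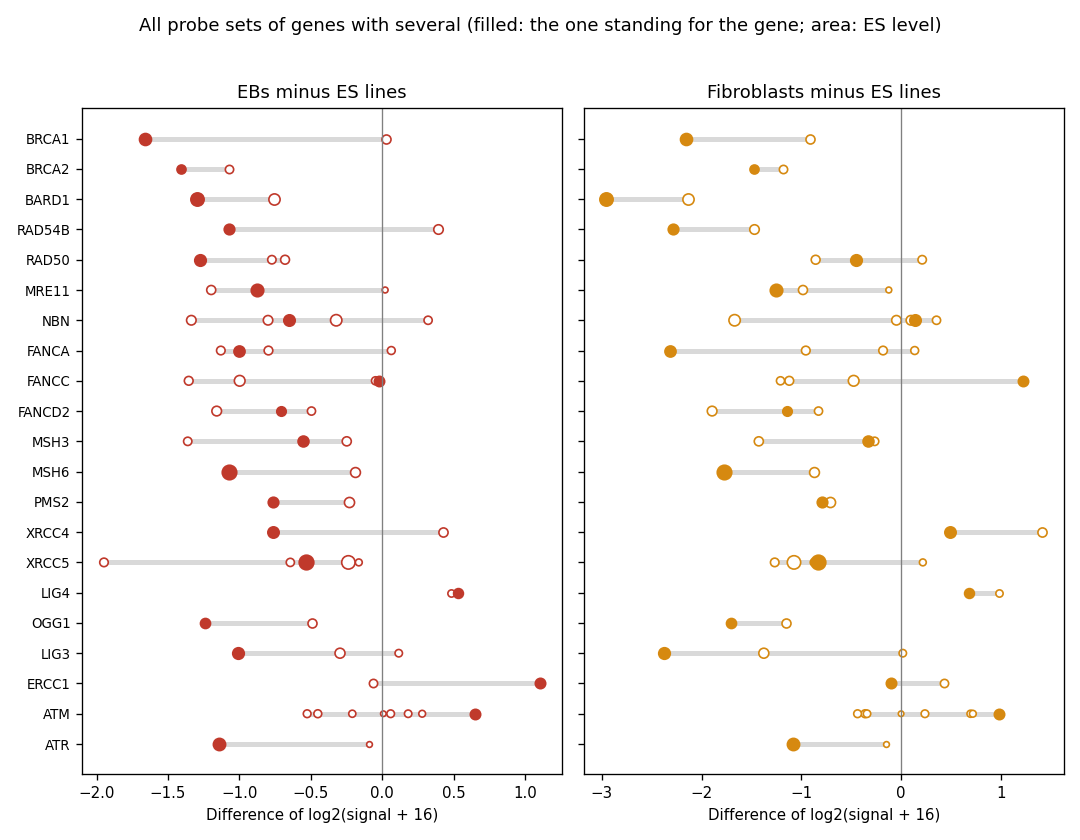
Differences of log2(signal + 16) for every probe set of the 21 repair genes with several, EBs minus ES lines on the left and fibroblasts minus ES lines on the right; filled circles stand for the gene, open circles are its other probe sets, area grows with the mean ES level, and the grey bar spans them. The fibroblast values of FANCC lie between -1.21 and 1.22, while all values of BARD1, BRCA2 and MSH6 are negative in both panels.

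The authors' deposited table gives change calls of each ES array against the single EB array, with ratios in the direction ES over EB. Of the 39 genes in the authors' deposited table, 12 were called increased in ES on all 7 arrays, against 4.52% of all genes. They were BRCA1, BRCA2, BARD1, RAD54L, BLM, FANCG, MSH6, UNG, LIG3, ATR, CHEK1 and CHEK2. In the same authors' deposited table ERCC1 was the only repair gene decreased in ES on all 7, against 8.23% of all genes, with log2 ratios between -2.5 and -0.5. DDB2 and XRCC1 were called decreased on 6 of 7 arrays in the authors' deposited table. The 7 comparisons share the EB array and are not independent.

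Between the ES lines no repair gene was called by limma's F test, where 0.197% of all genes were. At an unadjusted p below 0.05 there were 5 of 39, against 13.6% of all genes, and the lowest adjusted p was 0.17 for RAD50. The error of this test comes from ORMES6 alone. Over all probe sets the median absolute difference was 0.22 between replicates A and B, but 0.39 between A and C, as large as the 0.38 between A and ORMES7. Without replicate C 35.9% of all genes were called, and 19 of the 39 repair genes.

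The 5 widest ranges over lines were those of RAD50, PMS2, FANCL, RAD54B and MRE11. RAD50 had 10.11 in ORMES9, 9.11 in ORMES13, 8.32 in ORMES10, 7.85 in ORMES7 and 8.02 to 8.43 in ORMES6. PMS2 had 9.07 in ORMES13 and 8.16 in ORMES10, against 7.20 in ORMES9, 7.07 in ORMES7 and 6.97 to 7.29 in ORMES6. These lines lay above the rest for these genes, but neither gene passed the adjusted threshold (adjusted p = 0.17 and 0.20). A second PMS2 probe set, also Present in ORMES6 and ORMES9, had another order, with ORMES6 highest (7.53), ORMES10 lowest (7.10) and ORMES13 between them (7.34). Of the other RAD50 probe sets 1 was likewise highest in ORMES9 (6.73), and the other was highest in ORMES13 (6.35).

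FANCL was highest in ORMES10 (9.30) and lowest in ORMES13 (7.76), RAD54B highest in ORMES7 (8.40) and lowest in ORMES9 (7.03). The second RAD54B probe set was highest in ORMES10 (7.30) and also lowest in ORMES9 (6.57). MRE11 was lowest in ORMES9 (8.93) and highest in ORMES6, where its 3 arrays lay within 0.03 of each other, but its weaker probe sets were highest in ORMES7 (6.97 and 4.43). The SD over lines had a median of 0.30 for the 39 genes and 0.34 for all genes.

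**Figure D5:**
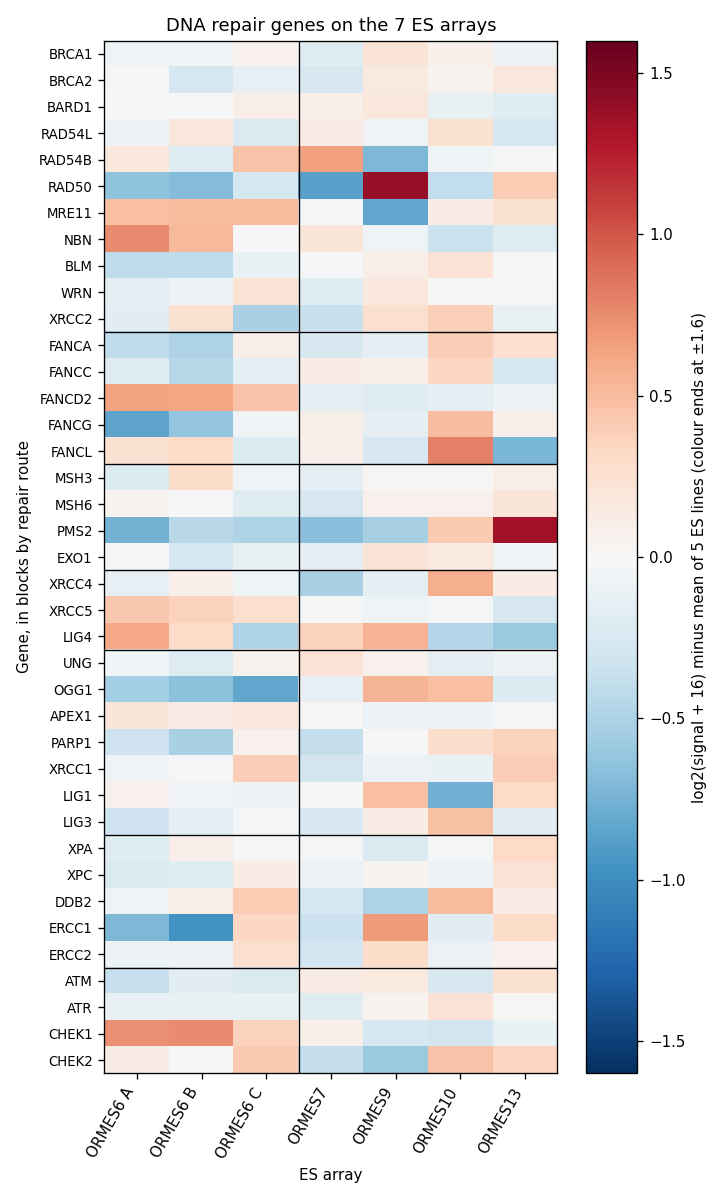
Level of each repair gene on the 7 ES arrays as log2(signal + 16) minus the mean of the 5 lines (colour), with genes in blocks by route and ORMES6 replicates left of the vertical line. Red is above the mean and blue below it; the strongest colours are RAD50 in ORMES9 (10.11) and PMS2 in ORMES13 (9.07).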

How the data were processed

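The arrays' intensity values were deposited on a linear scale and were made with MAS5, per the labels. The 2% trimmed mean was 200.0 on every array, so no scaling was added. Log2 ratios of ES arrays over the EB array, with change calls, and detection p-values are the authors' deposited values, read here as Present below 0.05 and Absent above 0.065. Detection was given for 1 ORMES6 array (which replicate is not stated), the other lines and, for 12094 probe sets, the fibroblasts; EB detection was not used here. A further 136 per-sample columns were not used.

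Of 52865 probe sets, 99 controls and 3 with missing values were left out. The deposited annotation named 40546 of the remaining 52763, 1591 of them by a sequence-tagged site, giving 19759 genes. A gene was represented by its probe set of highest average level over the EBs, the fibroblasts and the 5 line means. Log2(signal + 16) was fitted with limma 3.58.1 in R 4.3.3 (variance trend; 4 residual degrees of freedom, median prior 4.38). An F test over the 7 ES arrays compared lines. The fit was tested on simulated data.

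Members, lists and tests were chosen with earlier results of these data known. All 39 genes are named. Full statistics go to the 2 largest called differences per route and comparison (the largest where none was called), every rise, probe sets called in opposite directions, the 5 widest ranges over lines and the 3 largest calls among other repair genes, of which 1 in fibroblasts is not reported here. BRCA2, BLM, ATM, ERCC1, XRCC1 and the like are given beyond this rule to account for every member.

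Array number, not depth, limits precision. No sequences or genome positions are given. Alternatives were the offset, normalization, signal filter, probe set rule, variance trend, left-out arrays, ES arrays as replicates, spike level and a 2-fold threshold.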

Additional observations from a re-analysis of the deposited data

Results flagged for a closer look

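FANCD2 was high in ORMES6 among the 5 ES lines: its mean was 7.36 there, against 6.71 in the nearest line and 6.60 in the farthest. The gap took 0.863 of the whole range, above the critical value of 0.71 for 5 samples. All 3 ORMES6 arrays (7.24 to 7.43) lay above the other 4 lines. A second FANCD2 probe set, Present in all 5 lines, had the lowest mean in ORMES6 (6.76) and the highest level in ORMES7 (7.20). FANCD2 was the only one of 39 genes set apart in this way, and about 5% of groups pass the value by chance.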

How the results depend on the processing

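None of the 20 EB and fibroblast differences chosen for full statistics changed sign under any alternative run. For this comparison the test of single probe sets kept the probe set standing for the gene, so it could not show such a change. Other probe sets had the opposite sign for BRCA1 (0.03) and XRCC4 (0.42) in EBs. The same held for FANCA (0.14) and XRCC5 (0.22) in fibroblasts, and none of these was called. Over all 39 genes, counted in the same way, 9 EB differences and 4 fibroblast differences changed sign under at least 1 alternative, none of them called. The widest were RAD50 in EBs, 1.12 with the spike level as a covariate, and FANCC in fibroblasts, -0.67 with the median over probe sets. The EB count of 5 genes was 0 for a change beyond 2-fold, 0 with the spike level as a covariate, 3 with the median over probe sets and 9 with the filter on low signals. Left-out arrays gave 1 to 9. The fibroblast count of 22 was 8 for a change beyond 2-fold, and left-out arrays gave 17 to 23. The count of 0 between lines lay between 0 and 19 with left-out arrays, and was 0 under the other alternatives. The spike level of the EBs lies beyond the range of the line means. The cause of these changes in count, that with the spike covariate among them, was not tested. In fibroblasts UNG, RAD54L, BARD1, BRCA1, BLM, PARP1 and CHEK1 were called under all 19 alternatives. Centring moved the median of all genes in fibroblasts to 0.03, against -0.25. No paired analysis was possible because the EBs, the fibroblasts and 4 of the lines are single arrays and the lines in the EB pool are not stated. The number 1 of these arrays was given here and pairs nothing, and ORMES6 alone has labelled replicates. Signals near background limit XRCC2 and the weaker probe sets.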

Other observations

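Among 11 other translesion and direct repair genes measured, 4 were called higher in fibroblasts and 1 lower, where 7.89% and 13.0% of all genes were; these genes are named here after their values were seen. The 4 were the translesion polymerases REV3L, POLK, POLH and POLI. POLH, which copies past ultraviolet lesions, had 7.88 in fibroblasts, against 6.06, 6.39 and 6.48 (lowest, median and highest) on the 7 ES arrays (1.5 ± 0.34, limma adjusted p = 0.016). POLI rose by 1.35 ± 0.37 (adjusted p = 0.033). POLK was not Present in any ES line, so no fold is given for it. REV1 had -0.21, not called. MAD2L2, the partner of REV3L in its polymerase, fell by 1.90 ± 0.39 (adjusted p = 0.010). The fifth other repair gene that rose was ERCC5, the nuclease that cuts on the 3′ side in nucleotide excision repair (1.58 ± 0.44, adjusted p = 0.038). In EBs none of these genes was called.

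Among other damage signalling genes 6 of 13 fell in fibroblasts and none rose, against 13.0% and 7.89% of all genes, with a median of -1.02. In EBs 2 of the 13 fell, WEE1 and TIPIN, against 2.76% of all genes.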
